A study of Mus musculus with 8 samples.

Results

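The lysosomal hydrolases, activator proteins, membrane proteins, proton pump subunits and regulators described here are 40 genes chosen by symbol. They were looked up in the probe annotation of a mouse expression array, with 1 probe set kept for each gene, the one with the highest mean log2 level over all 8 arrays. A probe set was found for 39 of the 40, of 12393 genes measured in all, and Arsb, the sulfatase that removes sulfate from dermatan and chondroitin chains, was not analysed here because no probe set carried its symbol alone. The 39 divided into 10 proteases, 11 glycosidases and sulfatases, 5 lipid hydrolases, 2 activator proteins, 5 membrane proteins, 4 proton pump subunits and 2 regulators.

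The lysosome is the acidic compartment in which proteins, glycans and lipids brought in by endocytosis, phagocytosis or autophagy are broken down. Its soluble hydrolases are tagged in the Golgi, carried through endosomes by receptors that enter clathrin-coated vesicles, and work at the low pH that a proton-pumping ATPase of the lysosomal membrane maintains. The transcription factor TFEB and its relatives are known to control many of these genes together, through a short E-box sequence in their promoters. In myeloid cells several of the same hydrolases also reside in granules, so that lysosomal and granule proteins partly overlap.

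Expression had been measured in 4 lines of mouse hematopoietic progenitors, 6A, 6B, 6D and 84, each as Picalm-knockout cells and as PICALM-rescued cells, with 1 array for each line and condition. Picalm encodes a clathrin assembly protein, and the comparison addresses which genes respond when it is returned to cells that lack it. All lines were grown from liver cells of day 14 fetuses with the fit1 and Picalm fit1-5R alleles, on the background the labels give as B6(Cg)-TyrC-2J/J, and all carried MLL-ENL, a leukemia fusion gene delivered by retrovirus to immortalize them. They were kept in interleukin-3 at 5 ng/ml and stem cell factor at 50 ng/ml. Knockout cells held the empty MSCVneo vector and rescued cells the same vector with human PICALM cDNA, so the rescued arrays show vector-driven expression in immortalized progenitors and not the level of a normal allele. Picalm itself was not analysed here, so the labels were not checked against the level of the targeted gene.

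The arrays had medians of 7.32 to 7.35 on the log2 scale, and 8 of 8 arrays, taken as deviations from the mean of their condition, were most alike to the second array from the same line. The 5 pan-hematopoietic markers averaged 11.89 to 12.34 on the knockout and 12.24 to 12.54 on the rescued arrays, whereas the erythroid markers averaged 5.69 to 6.33 and the hepatocyte markers 6.08 to 6.48, near the level of 6.45 below which the dimmest 40% of probe sets lay. All 39 lysosomal genes lay above that level. Probe sets with names ending in _s_at or _x_at can bind transcripts of more than 1 gene. Those kept for Lipa, Mcoln1, Atp6ap1, Atp6v0b, Atp6v1e1, Atp6ap2 and Laptm4b are of these kinds. So are those of some other lysosomal genes that are counted below but not named. Line 84 stood apart from the other lines in many genes, so the main counts, and the gene values that rest most on it, are also given without it. All levels below are log2 values of single probe sets, listed for lines 6A, 6B, 6D and 84 in that order, and are compared between arrays and not between genes. Differences are rescued minus knockout on the log2 scale, with the standard error of a limma fit that held the line as a block (4 pairs), and adjusted p-values cover all 22626 probe sets with a threshold of about 12%. Since each line gave 1 array per condition, p-values measure only the spread between these arrays. The sources used here do not say whether the 4 lines came from separate fetuses, so the 4 pairs, and the contrast of 1 line with 3, may stand for fewer than 4 animals.

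No lysosomal gene passed the limma test of rescued against knockout cells, which 0.0796% of all probe sets passed. SAM, the method the study names, was rewritten here and called 1, Lyst, as higher. The genes the study selected with its own SAM run also include Galc, so the version here does not reproduce that selection. Paired by line, SAM called 0.473% of all probe sets higher and 2.01% lower, and without pairing 0.199% in either direction. Most of the 39 genes nevertheless lay slightly higher in the rescued cells: 32 of 39 (82.1%) had a mean difference above 0, against 52.6% of all genes, with a median of 0.07 against 0.01. The rescued array was the higher one in all 4 lines for 13 genes (33.3%) and the lower one in all 4 for 4 (10.3%), where the shares over all genes were 13.4% and 12%. At an unadjusted p under 0.05, 9 of the 39 were higher (23.1%) and 0 lower, beside 6.83% and 6.24% of all genes. The 4 rescued arrays all lay above the 4 knockout arrays for 3 genes (7.69%), Lyst, Galc and Ctsc, and all below for 0, as for 2.07% and 1.44% of all genes. Without line 84, 27 of 39 (69.2%) had a mean difference above 0, against 55.5% of all genes, and the median over the 39 was 0.04, beside 0.01. In the 3 remaining lines 16 (41%) were higher in each, where 21.7% of all genes were, and 9 were higher at that unadjusted p, where 8.19% were. The sign of the mean difference turned in 7 genes, and in 19 it was smaller by more than 1.5 times. In RNA from whole cultures, a smaller number of expressing cells and less RNA per cell cannot be told apart.

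The differences were small and unequal between lines. The median over the 39 genes was 0.004 in line 6A, 0.04 in 6B, 0.07 in 6D and 0.19 in 84, where the medians over all genes lay between -0.01 and 0.02. Line 84 had the largest of the 4 differences, in either direction, in 30 of the 39 genes (76.9%). It did so in 45.5% of all genes and in 4080 of the 7880 genes above the dimmest 40% of probe sets. With 1 pair per line, whether the effect of PICALM differs between lines could not be tested, and 4 pairs allow no two-sided p below 0.125 when their signs are exchanged in an exact test.

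**Figure D1:**
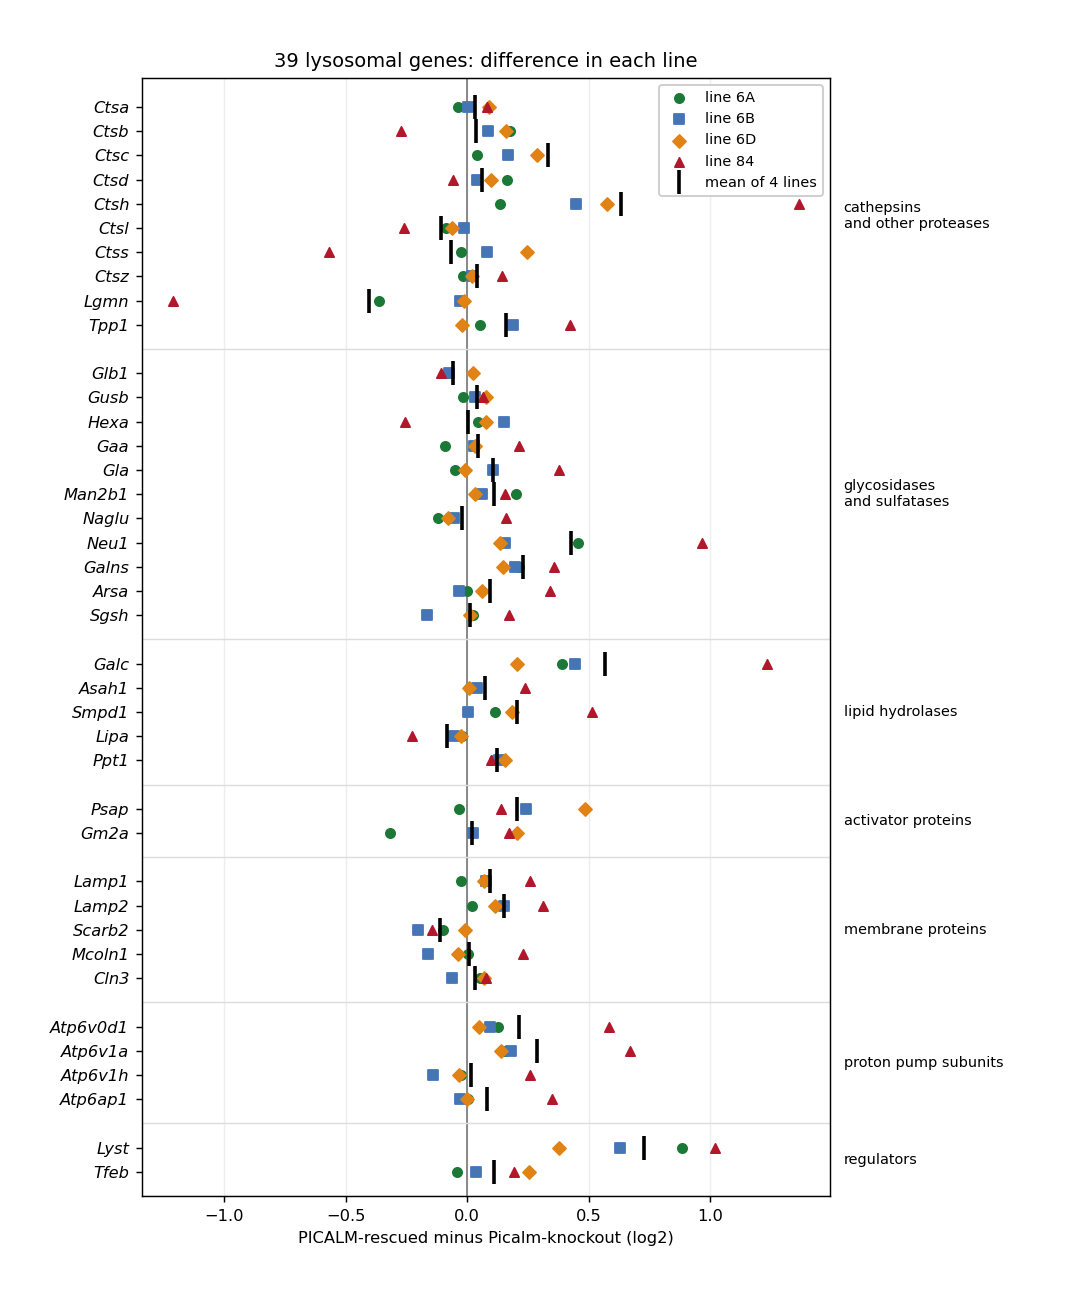
Difference between the rescued and the knockout array of each line (horizontal axis, log2) for the 39 lysosomal genes, grouped by role, with 1 symbol per line and a black bar for the mean of the 4 lines. The triangles of line 84 lie farthest from 0 in 30 genes, and the means range from -0.40 for Lgmn to 0.73 for Lyst.

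The larger contrast among these genes was between lines. In a moderated F test, 18 of 39 (46.2%) differed between the 4 lines, against 24.7% of all genes. Among the 7880 genes above the dimmest 40% of probe sets 2587 did. Without line 84 there were 2 of the 39, but that fit had fewer arrays. Its share over all genes was not determined, so the fall from 18 cannot be read as particular to these genes. Set against the mean of the other 3 lines over both conditions, 25 genes (64.1%) were lower in line 84 and 3 (7.69%), Glb1, Naglu and Gla, were higher. Over all genes 18.2% were lower and 23.9% higher, and among genes above the dimmest 40% of probe sets 25.4% were lower. The median difference of the 39 genes was -0.26, beside 0.04 for all genes. In 19 of the 39 (48.7%) both arrays of line 84 lay below the 6 others, and in 3 both lay above. Over all genes 16.7% lay below and 23.9% above. Of the 7880 genes above the dimmest 40% of probe sets, 1830 lay below and 2217 above. Line 84 gave the lowest of the 4 knockout arrays for 29 genes and the lowest of the 4 rescued arrays for 28, where 31.4% and 32.4% of all genes did so. This comparison sets 1 line against 3, so it describes that line, and its residual spread also holds the differences between lines in their response.

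**Figure D2:**
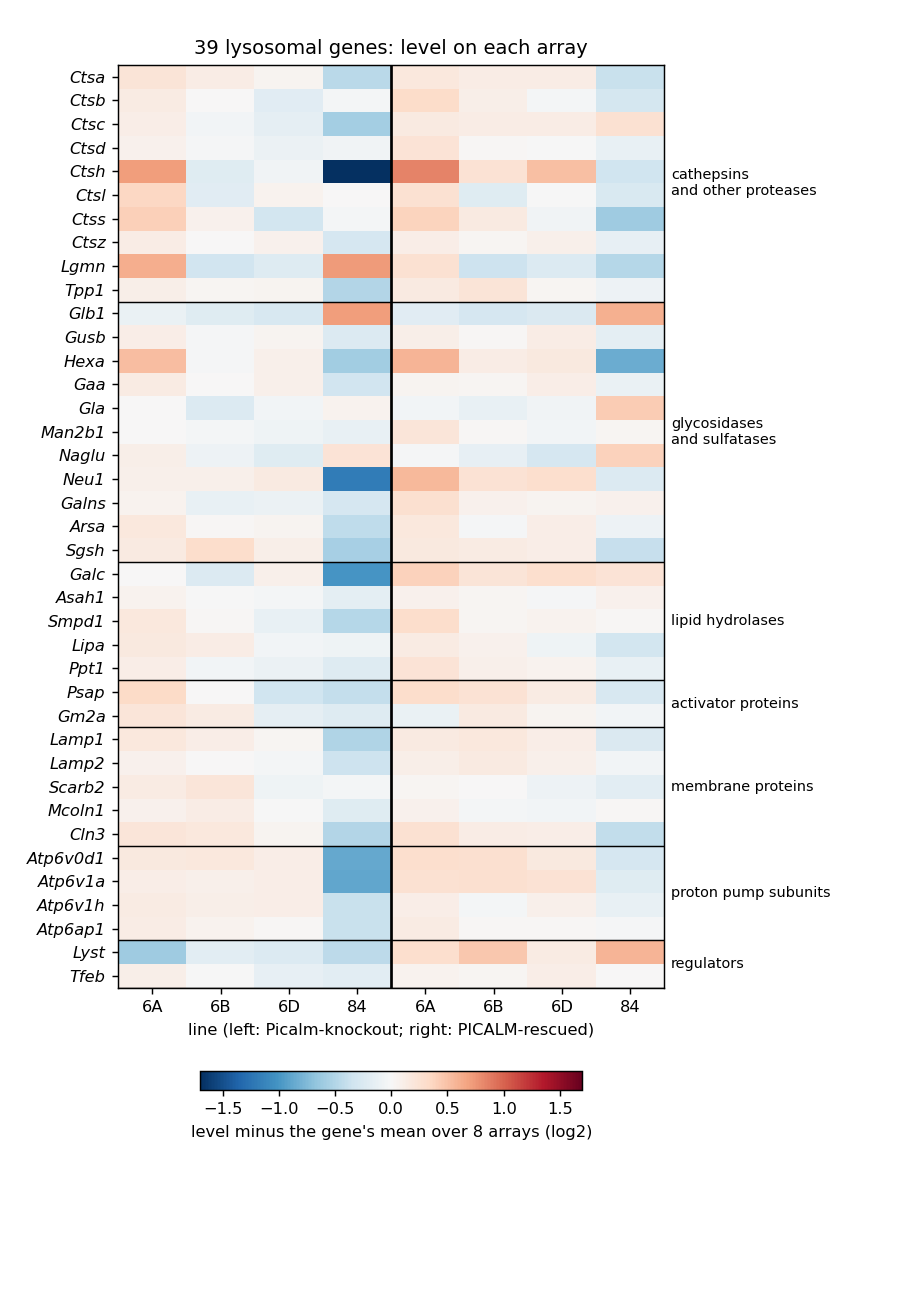
Log2 level of each of the 39 lysosomal genes on each array after subtracting the gene's mean over the 8 arrays, with knockout arrays on the left and rescued arrays on the right, red for higher and blue for lower. The column of knockout line 84 is blue for most genes and is the lowest of the knockout arrays in 29 of 39. Glb1 is red on both arrays of line 84.

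The E-box through which TFEB and its relatives are known to control many lysosomal genes was present in some of these promoters. A higher share than over all genes is therefore no independent evidence about this list. The letters TCACGTG hold the core CACGTG of the E-box bound by TFEB and its relatives. They were searched on both strands in the windows from 250 bases before to 50 after the start of each gene in RefSeq (GRCm38.p6). A window was found by symbol for 34 of the 39 genes, and not for Ctsb, Ctsh, Galns, Asah1 and Atp6v1h. The motif lay in a window of 14 of these 34 genes (41.2%), compared with 4.29% of all genes and 3.77% of all windows in the table, and with 8 of 46 other lysosomal genes (17.4%). The shorter letters CACGTG, which lie within it, were found in 15 of the 34 (44.1%) and in 8.09% of all genes. For 9 genes whose levels set line 84 apart, 1 site each follows, the one nearest the start in the window used. It is read on the strand of the gene, with 11 bases on either side. Capitals mark the match, or 8 letters where it reads the same on both strands. In these windows Lamp1 had 4 sites, and Ctsa, Cln3 and Gla had 2 each. Gaa and Arsa also had the motif and were lower in line 84, but their sites are not shown. The distance is that of the first base of the match before the start, except for Ctsa, where it is base 5 after it. The first 6 genes were lower and the last 3 higher in line 84.
Atp6v0d1: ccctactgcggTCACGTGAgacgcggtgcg (chr8:105566050-105566079, minus strand, 4 bases before the start)
Atp6v1a: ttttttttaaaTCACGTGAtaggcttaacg (chr16:44139373-44139402, minus strand, 132 bases before the start)
Lamp1: acgtgaccacaTCACGTGcggaacggagc (chr8:13159134-13159162, plus strand, 16 bases before the start)
Cln3: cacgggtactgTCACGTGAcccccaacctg (chr7:126583340-126583369, minus strand, 122 bases before the start)
Ctsa: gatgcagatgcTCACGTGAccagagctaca (chr2:164833766-164833795, plus strand, base 5 after the start)
Sgsh: ggcctgccgtgCACGTGAccgtggggagc (chr11:119355522-119355550, minus strand, 29 bases before the start)
Glb1: ctgcttctgagTCACGTGgcctacagagg (chr9:114401018-114401046, plus strand, 49 bases before the start)
Naglu: caaccttcaggTCACGTGgcccgaggtcg (chr11:101070009-101070037, plus strand, 74 bases before the start)
Gla: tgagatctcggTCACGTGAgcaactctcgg (chrX:134601182-134601211, minus strand, 195 bases before the start)
Of the 14 genes with the motif, 8 were lower in line 84, and of the 20 with a window that lacked it, 15 were lower. The 3 genes that were higher all had it. A match of letters is a description of these windows and does not show that a factor binds there.

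Among the 10 cathepsins and other proteases, 2 were higher and 2 lower in all 4 lines after rescue, with a median difference of 0.04. Ctsh (1418365_at), an aminopeptidase of the lysosome, stood at 10.10, 9.19, 9.34 and 7.70 in knockout and 10.24, 9.64, 9.91 and 9.06 in rescued cells. Every line was higher after rescue, and the 2 conditions overlapped because line 6A was high and line 84 low in both. The difference was 0.63 (SE 0.19, adjusted p = 0.342), a 1.55-fold change, and it was 0.39 without line 84. Line 84 was lower than the other lines by 2.56-fold for this gene (-1.36 ± 0.22 SE, adjusted p = 0.0108).

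Ctsc (1416382_at), the peptidase that activates the serine proteases of neutrophil granules, read 12.66, 12.50, 12.39 and 11.97 in the knockout arrays and 12.70, 12.67, 12.68 and 12.80 in the rescued ones. The conditions did not overlap, although the rescued arrays of 6A, 6B and 6D exceeded the highest knockout array by very little. Its difference was 0.33 (SE 0.13, adjusted p = 0.399), and it was 0.16 without line 84. Lgmn (1448883_at), an endopeptidase that cuts after asparagine, was lower in rescued cells in every line, at 7.89, 6.95, 7.06 and 8.001 in knockout and 7.53, 6.92, 7.05 and 6.79 in rescued cells. The gap was widest in line 84, at -1.21, and narrow in 6B and 6D, and the mean difference was -0.40 (SE 0.21, adjusted p = 0.477), or -0.14 without line 84. Ctsl, a broad endopeptidase, was also lower in each line, with a mean difference of -0.11, or -0.05 without line 84.

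For Ctsa (1448128_at), the carboxypeptidase that shields neuraminidase and beta-galactosidase from degradation, the levels were 11.66, 11.56, 11.48 and 10.98 in knockout and 11.62, 11.56, 11.57 and 11.06 in rescued cells. The rescue difference was 0.03 (SE 0.05, adjusted p = 0.783), whereas both arrays of line 84 lay below all others, with a difference of -0.55 ± 0.05 (adjusted p = 0.00236). Ctsl, Ctss, Ctsz and Tpp1 were lower in line 84 as well, with differences from -0.43 for Ctss to -0.17 for Ctsl. For Ctsl line 84 was not the only low line. It read 10.83 in knockout and 10.57 in rescued cells, beside 10.64 and 10.62 in 6B and 11.18 and 11.09 in 6A. Ctsb, Ctsc, Ctsd and Lgmn did not pass that test. The remaining proteases, Ctsb, Ctsd, Ctss, Ctsz and Tpp1, had mean rescue differences from -0.07 to 0.16.

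Of the 11 glycosidases and sulfatases, Man2b1, Neu1 and Galns were higher in all 4 lines after rescue and none was lower in all 4. The sialidase Neu1 (1416831_at), which trims sialic acid from glycans, was at 9.94, 9.94, 10.00 and 8.65 in knockout and at 10.39, 10.09, 10.14 and 9.62 in rescued cells. Both arrays of line 84 were the lowest of their condition, and line 84 had the widest gap between its arrays. The difference was 0.43 (SE 0.15, adjusted p = 0.358) and 0.25 without line 84. A second, dimmer probe set gave 0.39 and the last 0.07. Galns (1448744_at), a sulfatase of keratan sulfate, read 9.50, 9.32, 9.34 and 9.16 and 9.71, 9.52, 9.49 and 9.52 in knockout and rescued cells. The rescued array was higher by 0.15 to 0.36 in each line, with a mean of 0.23 (SE 0.05, adjusted p = 0.310), but the knockout array of 6A overlapped the rescued arrays.

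Line 84 split the glycosidases. Hexa (1449024_a_at), the alpha subunit of hexosaminidase, was at 12.72, 12.16, 12.27 and 11.59 in knockout and 12.76, 12.31, 12.35 and 11.34 in rescued cells. It was 1.95-fold lower in line 84 (-0.96 ± 0.09, adjusted p = 0.00205) and its rescue difference was 0.004 (SE 0.08), a direction that turned under quantile normalization and without line 6A, 6B or 6D. Sgsh (1438731_at), which removes sulfate from heparan sulfate, showed 7.69, 7.85, 7.64 and 6.98 and 7.71, 7.68, 7.65 and 7.15, with line 84 lowest in both conditions (-0.64 ± 0.07, adjusted p = 0.00404) and a rescue difference of 0.01 (SE 0.06) whose sign turned under array weights, with the mean over probe sets and without line 84. A second, dimmer probe set of Sgsh gave a line 84 difference of -0.14. Glb1 (1416205_at), the beta-galactosidase of gangliosides and keratan sulfate, ran opposite, at 9.11, 9.01, 8.94 and 9.94 in knockout and 9.03, 8.93, 8.97 and 9.83 in rescued cells. It was 1.84-fold higher in line 84 (0.88 ± 0.05, adjusted p = 0.000567). The products of Glb1, Neu1 and Ctsa are known to form a complex, and of these 3 genes Glb1 was higher and the others were lower in line 84.

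Naglu, a glucosaminidase of heparan sulfate, and Gla, the alpha-galactosidase of globotriaosylceramide, were higher in line 84, by 0.41 and 0.33 (adjusted p = 0.0115 and 0.0489). A dimmer probe set of Gla gave a difference of 0.0006 between line 84 and the others, so the probe sets disagreed. Neu1, Gusb, Gaa and Arsa were lower, with differences from -0.95 for Neu1 to -0.26 for Gusb. Only Man2b1 and Galns of the 11 did not pass. The rescue differences of Gusb, Gaa, Gla, Naglu, Arsa, Man2b1 and Glb1 lay between -0.06 and 0.11.

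**Figure D3:**
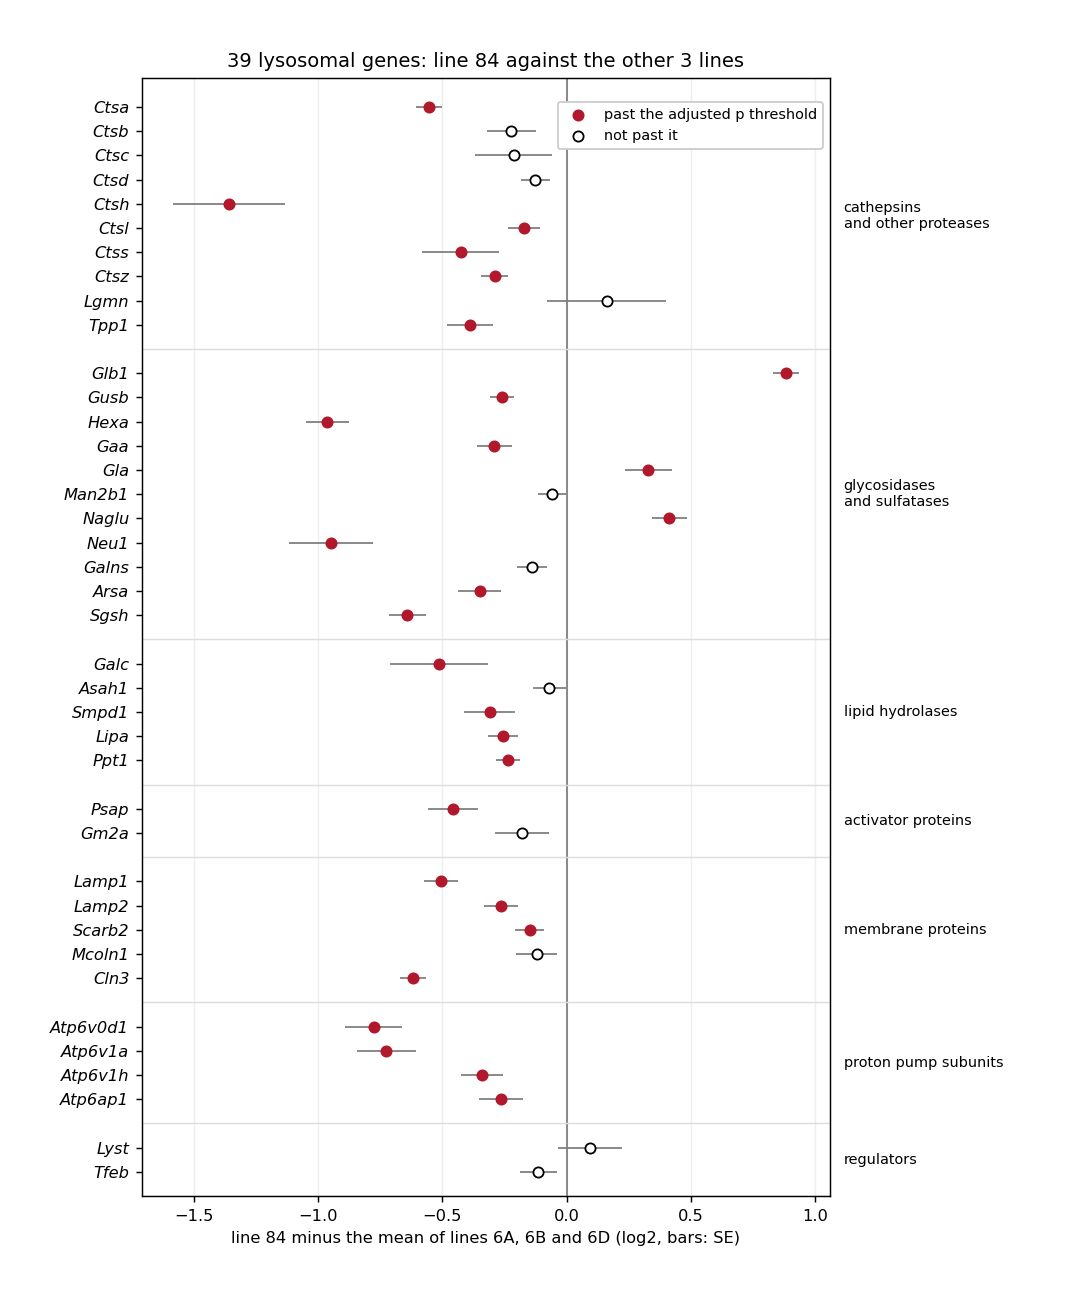
Difference between line 84 and the mean of lines 6A, 6B and 6D over both conditions (horizontal axis, log2, bars give the SE) for the 39 lysosomal genes, filled in red where the adjusted p passed the threshold. Red points left of 0 are the 25 genes lower in line 84, and the 3 red points right of 0 are Glb1, Naglu and Gla.

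Lipid hydrolases lay higher after rescue in 4 of 5 cases, each in all 4 lines, and the median difference was 0.12. Galc (1452907_at), the galactosylceramidase, was at 8.55, 8.31, 8.63 and 7.54 in knockout and at 8.94, 8.76, 8.83 and 8.77 in rescued cells. The conditions did not overlap, and the rescued arrays lay close together while the knockout array of line 84 was far below the rest. Its difference was 0.57 (SE 0.17, adjusted p = 0.338), or 1.48-fold, and 0.35 without line 84. The study picked Galc for its lipid gene list on these same arrays, so the direction is no independent evidence. Its other 2 probe sets were much dimmer and gave 0.10 and -0.04. Ppt1 (1422467_at), the thioesterase that removes palmitate from proteins, was at 10.21, 10.05, 10.00 and 9.87 and 10.32, 10.19, 10.15 and 9.97. The rescued array was higher in each line by 0.10 to 0.15, though the spread between lines was larger than the mean difference of 0.12 (SE 0.04, adjusted p = 0.352), and a second probe set gave 0.19. Smpd1, the acid sphingomyelinase, and Asah1, the acid ceramidase, differed by 0.20 and 0.07, or 0.10 and 0.02 without line 84. Lipa, the acid lipase that frees cholesterol from the esters of endocytosed lipoproteins, was lower in every line, with a mean difference of -0.08 (SE 0.05, adjusted p = 0.551), or -0.03 without line 84. Its other probe sets gave -0.06 and -0.08 but were not lower in all 4 lines. Galc, Smpd1, Lipa and Ppt1 were lower in line 84, with differences of -0.51 to -0.24, and Asah1 did not pass that test. For Galc and Smpd1 this rests mostly on the knockout array. Their rescued arrays of line 84 (8.77 and 9.08) were close to those of 6B (8.76 and 9.09).

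The activator proteins present lipids to the hydrolases. Psap, the precursor of the saposins, had a rescue difference of 0.21 (SE 0.09, adjusted p = 0.417) and was lower in line 84, with a difference of -0.46. After rescue it was higher in every line but 6A. Gm2a, which serves hexosaminidase in ganglioside breakdown, differed by 0.02 with opposite signs between lines, from -0.32 in 6A to 0.20 in 6D, and did not pass in line 84.

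**Figure D4:**
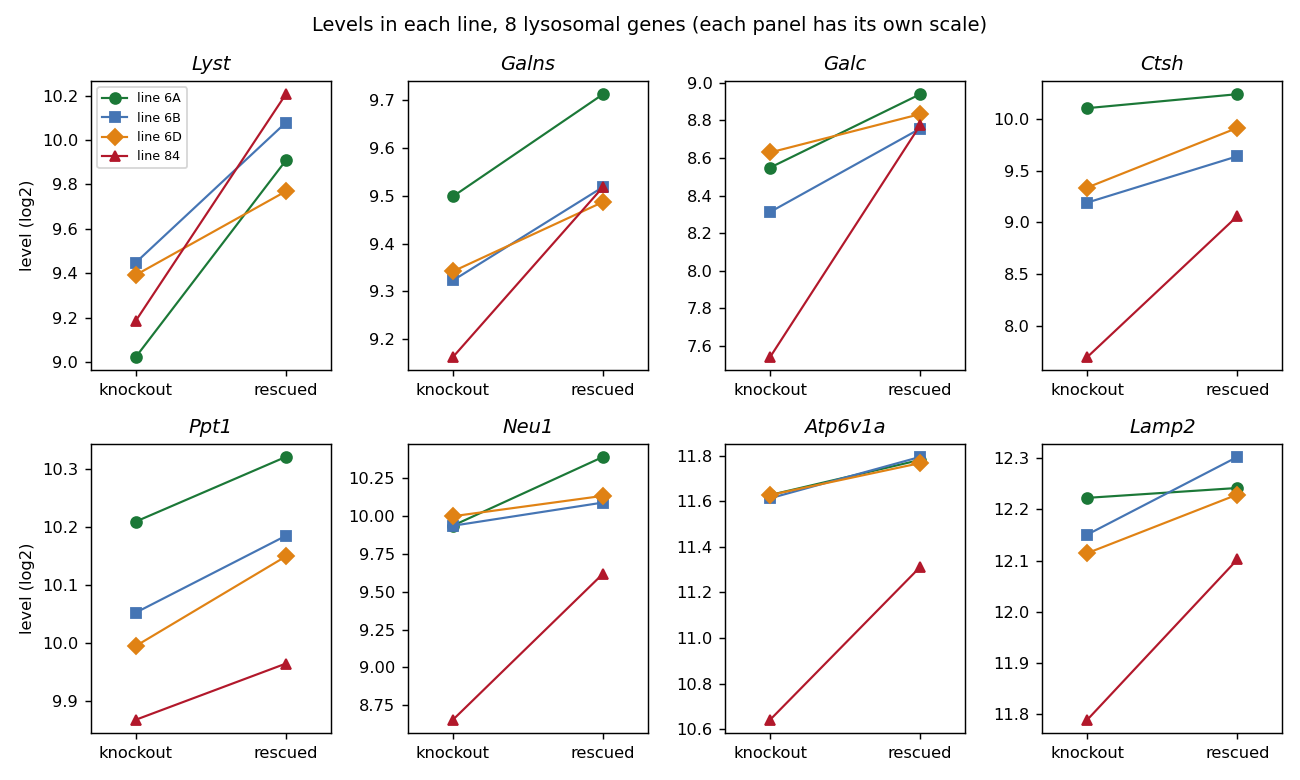
Log2 level in the knockout and the rescued array of each line (points joined by line) for the 8 lysosomal genes with the smallest p, each panel on its own scale. All lines slope upward in each panel, and only in Lyst and Galc do the knockout and rescued points not overlap.

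Membrane proteins make up most of the protein of the lysosomal membrane or carry ions and cargo across it. Lamp1 (1415880_a_at), a glycoprotein that coats the inner face, read 13.16, 13.09, 13.02 and 12.47 in knockout and 13.13, 13.16, 13.09 and 12.73 in rescued cells. The rescue difference was 0.09 (SE 0.06, adjusted p = 0.534), and line 84 was lower, with a difference of -0.51 ± 0.07 (adjusted p = 0.00595). Lamp2 (1428094_at), its relative with roles in autophagy and membrane fusion, was at 12.22, 12.15, 12.11 and 11.79 and 12.24, 12.30, 12.23 and 12.10. It was higher in each line, by 0.15 on average (SE 0.06, adjusted p = 0.397) and 0.10 without line 84, and 4 of its 4 probe sets were higher in all 4 lines, with differences of 0.11 to 0.21. In line 84 it was lower, with a difference of -0.26.

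Cln3 (1417551_at), a membrane protein whose loss causes juvenile neuronal ceroid lipofuscinosis, had levels of 8.92, 8.90, 8.76 and 8.21 in knockout and 8.97, 8.84, 8.83 and 8.29 in rescued cells. Both line 84 arrays were well below the others (-0.62 ± 0.05, adjusted p = 0.00176) and the rescue difference was 0.03 (SE 0.05, adjusted p = 0.790). Scarb2 (1454704_at), the receptor that brings beta-glucocerebrosidase to lysosomes, was at 10.82, 10.89, 10.61 and 10.64 and 10.72, 10.68, 10.60 and 10.50. It was lower in every line after rescue (-0.11, SE 0.05, adjusted p = 0.421), but a second probe set gave 0.05, so the direction rests on 1 probe set. Both probe sets were lower in line 84, with differences of -0.15 and -0.77. Mcoln1 (1416672_s_at), a calcium channel of the lysosomal membrane, was at 8.24, 8.30, 8.17 and 7.97 and 8.24, 8.14, 8.13 and 8.20. It passed neither test, with a rescue difference of 0.0071 (95% interval -0.17 to 0.18) and a line 84 difference of -0.12.

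The proton pump is a rotary ATPase with a peripheral part that splits ATP and a part in the membrane that moves protons. All 4 subunits chosen had rescue differences above 0, but without line 84 those of Atp6v1h and Atp6ap1 turned to -0.07 and -0.0092, and the median of the 4 went from 0.15 to 0.04. All 4 were lower in line 84. Atp6v1a (1450634_at), the catalytic subunit, was at 11.63, 11.61, 11.63 and 10.64 in knockout and 11.78, 11.79, 11.77 and 11.31 in rescued cells. The 3 other lines were nearly identical to each other within each condition, and line 84 lay far below them in knockout and closer after rescue. The difference was 0.29 (SE 0.10, adjusted p = 0.363) and 0.16 without line 84, and a second probe set gave 0.32. Atp6v0d1 (1415671_at), which couples the rotor to the membrane ring, was at 12.25, 12.26, 12.20 and 11.21 and 12.38, 12.35, 12.24 and 11.79, again with line 84 far below in knockout, and with a difference of 0.21 (SE 0.10, adjusted p = 0.440), or 0.09 without line 84. Atp6v1h (1415826_at), a regulatory subunit, read 11.33, 11.30, 11.31 and 10.81 and 11.31, 11.16, 11.28 and 11.07 and was higher after rescue only in line 84. Atp6ap1 (1449622_s_at), an accessory subunit needed for assembly, read 11.71, 11.63, 11.60 and 11.20 and 11.71, 11.60, 11.60 and 11.55, and its rescued and knockout arrays differed by 0.03 or less in 6A, 6B and 6D. In line 84 the 4 were lower, with differences of -0.78 ± 0.11 for Atp6v0d1, -0.72 ± 0.12 for Atp6v1a, -0.34 ± 0.08 for Atp6v1h and -0.26 ± 0.09 for Atp6ap1, with adjusted p-values of 0.00783 to 0.0774.

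The other 12 measured subunits of the pump came from a list of 13. Among all 16 subunits, 10 (62.5%) were higher in all 4 lines after rescue and 0 were lower in all 4. The shares over all genes were 13.4% and 12%. The median difference of the 16 was 0.15, and 5 (31.2%) were higher at an unadjusted p under 0.05, against 6.83% of all genes. None of the 16 passed the adjusted test. By line the median was 0.11 in 6A, 0.06 in 6B, 0.07 in 6D and 0.34 in 84. Without line 84, 11 of the 16 (68.8%) were higher in all the remaining lines, 4 (25%) were higher at that unadjusted p, and the median was 0.08. The shares over all genes were then 21.7% and 8.19%. The 2 with the smallest p were Atp6v0e, a small membrane subunit (0.19, SE 0.05, unadjusted p = 0.00837, adjusted p = 0.318), and Atp6v0b, a proton-carrying subunit of the ring (0.25, SE 0.09, adjusted p = 0.358, 0.16 without line 84). Atp6v0e read 12.32, 12.35, 12.30 and 11.98 in knockout and 12.54, 12.50, 12.41 and 12.25 in rescued cells. In line 84, 12 of the 16 (75%) were lower and 1, Atp6v1f, was higher, where 18.2% of all genes were lower and 23.9% higher.

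**Figure D5:**
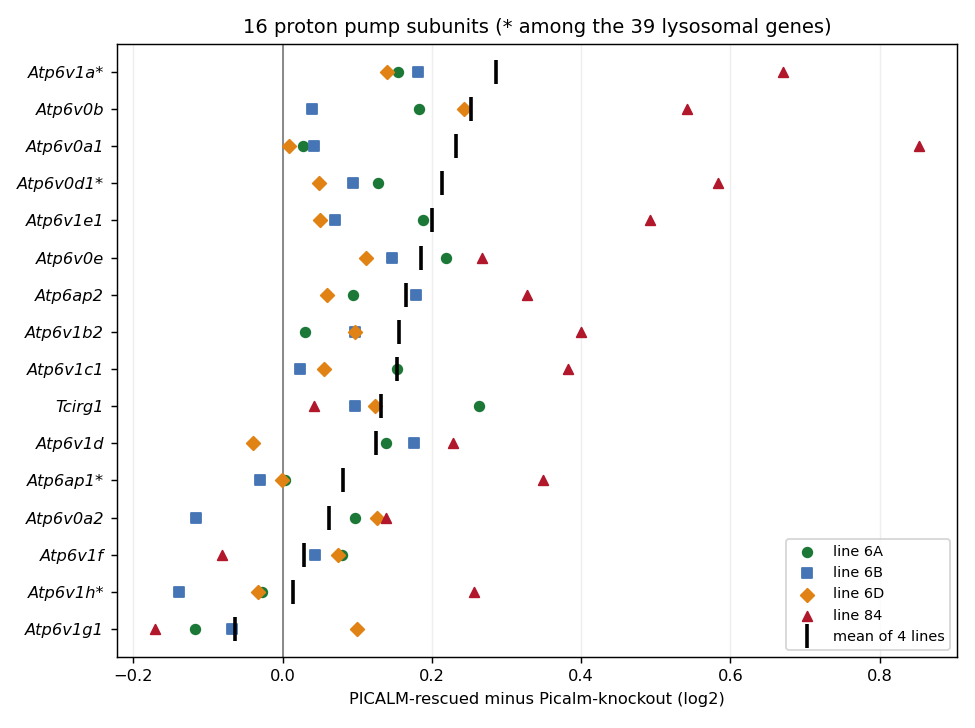
Difference between the rescued and the knockout array of each line (horizontal axis, log2) for the 16 measured proton pump subunits in order of their mean, with 1 symbol per line and a black bar for the mean. For 10 subunits all 4 symbols lie right of 0, and the median is 0.34 in line 84 and 0.06 to 0.11 in the others.

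Of the regulators, Lyst (1434674_at), a very large protein that governs the size and fusion of lysosomes and is mutated in the beige mouse, had the smallest p of the 39 genes. Knockout arrays read 9.02, 9.45, 9.39 and 9.19 and rescued arrays 9.91, 10.08, 9.77 and 10.21. Each rescued array was above each knockout array, and the conditions did not overlap. The difference was 0.73 (SE 0.11, 1.66-fold, unadjusted p = 0.000749), with an adjusted p of 0.208 that missed the threshold. It was the 1 lysosomal gene called by SAM as rewritten here, in both its paired and its unpaired form. Limma also called it with array weights (adjusted p = 0.110) or with a variance trend (adjusted p = 0.112). It was 0.63 without line 84. Of 2 dimmer probe sets, 1 gave 0.40 without overlap and the other 0.12. The study listed Lyst among its top genes on these arrays, so this is no independent evidence. Tfeb (1422566_at), the transcription factor, was at 8.27, 8.15, 8.02 and 7.98 and 8.22, 8.19, 8.28 and 8.17. It differed by 0.11 (SE 0.06, adjusted p = 0.513), with the rescued array lower in 6A and higher in the others, and by -0.11 in line 84 (adjusted p = 0.2996). Neither regulator passed the tests between lines.

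Other genes of the lysosome, a list of 73 of which 59 were measured, were also mostly lower in line 84. After rescue 16 of 59 (27.1%) were higher in all 4 lines and 2 (3.39%) were lower, against 13.4% and 12% of all genes. Their median difference was 0.05, and none passed the adjusted test. At an unadjusted p under 0.05, 6 (10.2%) were higher and 2 (3.39%) were lower, beside 6.83% and 6.24% of all genes. Without line 84 these were 4 (6.78%) and 6, where 8.19% of all genes were higher and 782 of 12393 were lower. The 12 pump subunits gave 8 of the 16 that were higher in all 4 lines. Among 19 other hydrolases, 0 were higher and 2 were lower in all 4 lines, with a median of -0.04. Besides the pump subunits named above, the smallest p belonged to Gnptab, the enzyme that adds the mannose phosphate tag to hydrolases (-0.16, SE 0.05, adjusted p = 0.342), and to Laptm4b, a membrane protein of late endosomes and lysosomes (-0.22, SE 0.08, adjusted p = 0.361). In line 84, 35 of the 59 (59.3%) were lower and 5 (8.47%) were higher, beside 18.2% and 23.9% of all genes.

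Markers of myeloid maturation and of other lineages also differed between conditions and between lines. Neutrophil granule markers were higher after rescue in all 4 lines for 9 of 11 genes, with a list mean of 8.04 to 9.19 on the knockout arrays and 9.69 to 11.15 on the rescued arrays, though none of them passed the adjusted test and 8 were higher at an unadjusted p under 0.05. Monocyte and macrophage markers were at 8.18 to 8.68 and 8.04 to 8.68, higher in all 4 lines for 2 of 13 and lower for 2. Between lines 10 of these 13 differed, and in line 84 there were 7 lower and 3 higher, with a median difference of -0.46. The pan-hematopoietic markers were higher after rescue in all 4 lines for 5 of 5, 3 of them at an unadjusted p under 0.05, and in line 84 there were 3 lower and 1 higher. The 4 azurophil granule markers averaged 12.90 in knockout line 84 and 13.88 to 14.10 in the other knockout arrays, and 3 of them were lower in line 84. Of the 11 neutrophil granule markers 3 were lower and 2 higher there. In line 84 the mast cell and basophil markers averaged 7.38 and 8.61 in knockout and rescued cells, against 5.93 to 6.96 on the 6 other arrays, and 5 of 10 were higher there. Stem and progenitor markers averaged 11.86 and 11.29 in line 84 against 10.37 to 11.08 on the others, and 6 of 8 were higher there. After rescue their median difference was -0.44, with 4 of 8 lower at an unadjusted p under 0.05 (6.24% of all genes). For the mast cell and basophil markers the median was 0.72, with 5 of 10 higher at that p (6.83% of all genes). The azurophil granule markers had a median of 0.13, with 1 of 4 higher at that p. None of these passed the adjusted test. The part of cell composition or maturation in the lysosomal differences was not tested.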

How the data were processed

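Total RNA of 8 cultures was hybridised to Affymetrix mouse arrays. The labels give the A version of the array, which the number of probe sets fits, and the methods the full one. The deposited log2 levels had been made by the authors with RMA, which corrects background, normalizes by quantiles and summarises the probes of a set, and nothing more was done to them. Of 22690 probe sets, 64 controls were left out, which left 22626 tested, and 20380 of all probe sets had 1 gene symbol, 691 several and 1555 none. Arrays give no count of molecules, so their number limits the precision.

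The main fit was limma 3.58.1 (lmFit, eBayes) in R 4.3.3 on all probe sets, with condition and line as terms, two-sided, with Benjamini-Hochberg adjustment and the threshold of 12.3% that the methods name for SAM. Each line gave both arrays, which pairs them, and their deviations from the condition means correlated at 0.623 to 0.811. The same fit gave the F test between lines and the contrast of line 84 against the others. Without the block, 4 lysosomal genes in place of 9 were higher at an unadjusted p under 0.05. Pipelines were tested on simulated data.

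Alternatives were SAM with 16 sign changes or 70 arrangements, the methods' t-test on 4 arrays a group, quantile normalization, centring, a filter on dim probe sets, array weights, a variance trend, the mean over probe sets, a threshold of 0.05 and each line left out. Values on every array are given for the 8 genes of smallest p, the 6 of smallest p between lines, those that went 1 way in all lines by at least 0.3, Tfeb, the membrane proteins and the pump subunits. The genes, lists and tests were chosen with earlier results of these data known. Promoter windows are from RefSeq.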

Additional observations from a re-analysis of the deposited data

Results flagged for a closer look

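Each group of 4 arrays was searched for 1 array far from the other 3, and 13 of the 78 groups of the 39 genes held one. Chance alone gives about 1 in 20 groups, but these groups come from the same arrays and are not independent. The share of flagged groups over all genes was not determined, so the count cannot be read as particular to these genes. The flags lay in line 84 in all but 2 cases, 6 in knockout and 5 in rescued cells. In knockout cells the line 84 array was low for Tpp1 (11.43), Neu1 (8.65), Atp6v0d1 (11.21), Atp6v1a (10.64) and Atp6v1h (10.81), and high for Glb1 (9.94). In rescued cells it was low for Ctsa (11.06), Sgsh (7.15) and Atp6v1a (11.31), and high for Glb1 (9.83) and Gla (10.26). The 2 other cases were the rescued arrays of line 6A for Galns (9.71) and Smpd1 (9.35), both high. All values are log2 levels, and Glb1 and Atp6v1a stood apart in both conditions.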

How the results depend on the processing

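Counts over the 39 genes were recomputed under the alternatives, and 79 of 94 values stayed within 1.5 times the reported count or within the spread over lines. With 1 array per line and condition, small differences were not detectable. Called genes for rescue went from 0 to 1, Lyst, under SAM paired, SAM unpaired, array weights, and the variance trend. Genes higher at an unadjusted p under 0.05 were 4 without the block and 2 by the methods' t-test (9 in the blocked fit), and 5 to 9 with each line left out, lowest without 6D. Genes lower at that p were 1 without the dimmest 40% of probe sets, 1 with the variance trend, and 0 to 1 with each line left out, the 1 without 6D. Genes lower in all 4 lines were 2 after centring on the median and 2 with the mean over probe sets. Genes higher in all remaining lines ranged from 14 to 21, highest without 6A, where fewer lines have to point the same way. Genes that differed between lines were 10 at a threshold of 0.05 and 15 with array weights. They were 20 with the mean over probe sets, 25 with the variance trend and 26 without the dimmest 40% of probe sets. With each line left out they were 2 to 18, the 2 without line 84, where the share over all genes was not determined. Genes lower in line 84 ranged from 19 to 28, and genes higher there from 2 to 3, over all alternatives run.

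Of the named genes, 221 of 230 values kept direction and call. The 6 line 84 differences of smallest p between lines kept theirs in 54 of 54. Lyst passed with array weights (0.65) and the variance trend (0.73). Hexa turned to -0.0044 under quantile normalization and ranged from -0.0451 to 0.0902 with each line left out. Sgsh turned to -0.0394 with array weights and -0.0336 with the mean over probe sets, and ranged from -0.0443 to 0.0688 with each line left out. The leave-out counts of the pump subunits (10 to 11) and the other lysosomal genes (17 to 21) were chosen after seeing the data, as were the values without line 84 of roles and of genes not named by the rule. The cause of these shifts was not tested.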
